A study of Macaca mulatta with 9 samples.

Results

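Differentiated embryoid bodies (EBs) were compared with adult skin fibroblasts of the rhesus macaque, 1 array of each, out of 9 arrays in the series. The EB array carried pooled EBs grown from ORMES embryonic stem (ES) cells and left to differentiate spontaneously for 30 days. The fibroblast array carried skin fibroblasts grown in DMEM with 10% serum and trypsinized at confluence. The other 7 arrays came from 5 undifferentiated ES lines (ORMES6, with 3 replicates, ORMES7, ORMES9, ORMES10 and ORMES13), grown with FGF2 at 4 ng/ml on inactivated mouse feeder cells in medium with 15% serum. They serve below only as a level beside both samples.

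The labels give the EB culture in different ways. One describes ultra-low adhesion dishes for the 30 days, in ES medium from which FGF2 was left out. Another describes 1 week in suspension and then 30 days on gelatin. They do not name the ES lines that were pooled, nor the number of animals or passages behind the fibroblasts. No treatment or genotype separates the groups otherwise. Cell type, culture, age of origin and array therefore differ together between the EBs and the fibroblasts, and their effects cannot be told apart.

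An EB is a ball of ES cells that, once the factors holding them pluripotent are withdrawn, forms cells of all embryonic germ layers in a disorganised way. Dermal fibroblasts are mesenchymal cells that make and remodel the collagen matrix of the skin and that answer injury with cytokines and proteases. EBs commonly contain mesenchymal cells that make the same matrix, so the comparison sets a mixed embryonic tissue beside 1 mature, adherent cell type. In such bulk samples, fewer cells of a type and less RNA per cell cannot be told apart.

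All probe sets were used except controls and those of Y-linked genes, which left 52732 probe sets, of which 40109 carried 1 gene symbol and named 19581 genes. The brightest probe set stood for each gene. A signal is the brightness the authors' software gave a probe set, a level is log2(signal + 16), and a difference is the EB level minus the fibroblast level, so that a difference of 2 is 4-fold. The added 16 compresses the folds of dim genes. With 1 array a side there is no replicate and no test, and the sizes below describe these 2 arrays. Signals of different probe sets are not on a common scale, so levels are compared between arrays and not between genes.

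At least 4-fold apart were 1823 probe sets higher in EBs (3.46% of all) and 1138 higher in fibroblasts (2.16%). At the gene level these were 1132 genes higher in EBs (5.78%) and 602 higher in fibroblasts (3.07%), and 14265 genes (72.9%) lay within 2-fold. Among the 8889 genes with a signal of 200 on either array, 791 (8.9%) were past 4-fold on the EB side and 537 (6.04%) on the fibroblast side. In either direction 5.62% of probe sets were past 4-fold between EBs and fibroblasts. Between pairs of the 3 ORMES6 replicates the shares were 0.0247%, 0.364% and 0.438%, and between pairs of the 5 ES lines, with 1 ORMES6 array, 0.389% to 2.02%. The EB to fibroblast share thus lay above each of those pairs. Of the probe sets past 4-fold, 61.6% were higher in EBs, but only 48.9% after each array was centred on its median. The median difference over all genes was 0.20, and it became -0.07 with that centring, so list medians below are to be read against 0.20.

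The arrays also differed in technical measures. The ratio of 3′ to 5′ signal of actin, a sign of RNA integrity, was 7.15 for EBs and 13.1 for fibroblasts. For GAPDH it was 1.61 for EBs and 2.74 for fibroblasts. On the ES arrays the actin ratio ran from 22.7 to 66.2 and the GAPDH ratio from 2.55 to 5.2. Levels set beside the ES arrays carry that gap as well. The hybridisation spikes had a geometric mean signal of 619 for EBs and 1015 for fibroblasts. The part of these measures in the differences was not tested.

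**Figure D1:**
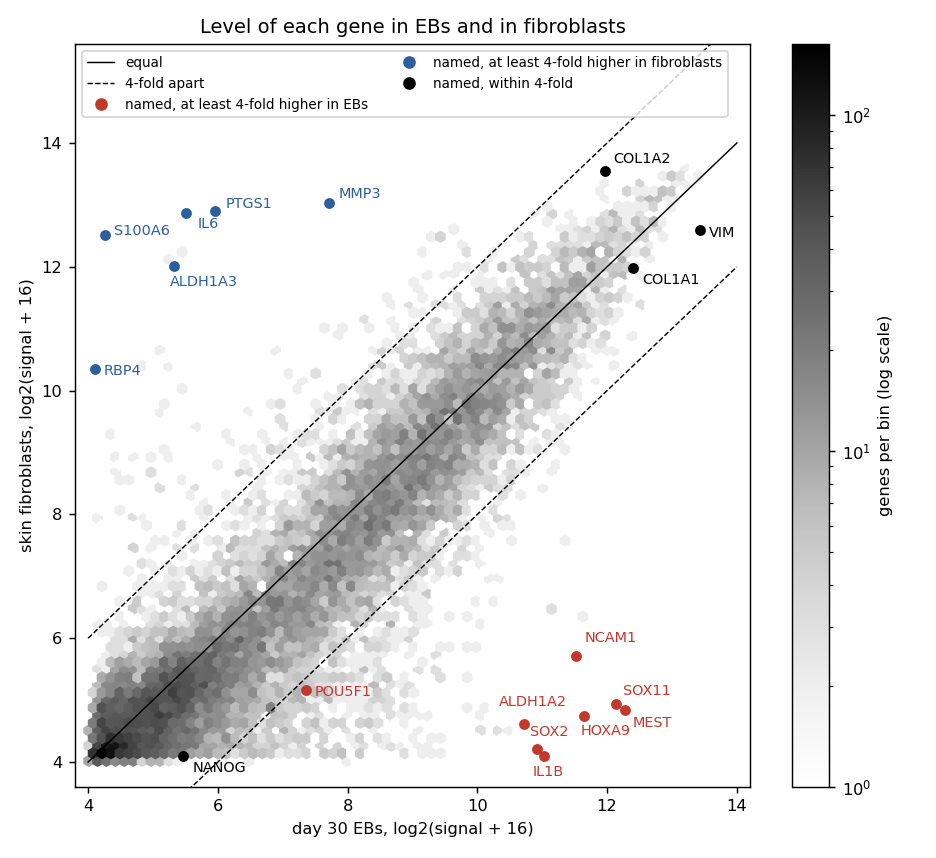
Level of each of the 19581 genes, as log2(signal + 16), in day 30 EBs (x axis) and skin fibroblasts (y axis); grey shading is the number of genes per bin, the solid line marks equal levels and the dashed lines 4-fold. MEST, SOX11, IL1B and HOXA9 lie far to the right and low, S100A6 and IL6 far to the left and high, and COL1A1, COL1A2 and VIM lie near the line at high levels on both arrays.

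The fibroblast label was checked against 12 marker genes. VIM, the intermediate filament of mesenchymal cells, had a signal of 11031 in EBs and 6174.7 in fibroblasts. For COL1A1 and COL1A2, the chains of type I collagen, the EB signals were 5374.7 and 3970.6, against 4017.7 and 12002.2 in fibroblasts. Both samples thus carried the mesenchymal filament and collagen strongly. NT5E, the ectonucleotidase CD73 of cultured stromal cells, stood at 25.9 in EBs and 1657.4 in fibroblasts (difference -5.32). S100A4, a calcium-binding protein used as a fibroblast marker, stood at 213.2 in EBs and 1857.9 in fibroblasts (-3.03). These were the markers past 4-fold. The remaining ones were within 4-fold. COL3A1, FAP and DCN had 7732.3, 3083.1 and 2298 in EBs, against 5649.5, 6515.3 and 7266.1 in fibroblasts. LUM, DDR2 and PDGFRB had 5882.1, 1258.4 and 619.5 in EBs, against 4156.4, 3254.7 and 567.5 in fibroblasts. THY1 was not named by any single-symbol probe set. Every measured marker but NT5E reached a signal of 200 in EBs, and every one did in fibroblasts.

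The EB array carried low levels of the core pluripotency factors. POU5F1, which encodes OCT4, had a signal of 148.1 in EBs and 19.8 in fibroblasts, with 3812.1, 5271.2 and 7587.7 as the lowest, median and highest of the ES arrays. For NANOG the signals were 28.2 in EBs and 1.2 in fibroblasts, with 2461.3, 4331.5 and 5248.8 on the ES arrays. On both genes the EBs lay far below every ES array and nearer to the fibroblasts. SOX2, which neural progenitors also use, differed from these, with 1920.9 in EBs and 2.5 in fibroblasts (difference 6.71) and 4114.7 to 6224.9 on the ES arrays. Its second bright probe set gave 305.7 in EBs and 0.9 in fibroblasts.

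Over the pluripotency list, 8 of 27 measured genes were at least 4-fold higher in EBs and 0 in fibroblasts, with a median difference of 0.81. LIN28A, an RNA-binding protein that blocks let-7 maturation, had a signal of 181.7 in EBs and 3.2 in fibroblasts, and the methyltransferase DNMT3B had 322.9 in EBs and 21.9 in fibroblasts. LEFTY1, an inhibitor of Nodal, had 284.4 in EBs and 25.9 in fibroblasts. The summed signal of the list was 6057.6 in EBs and 3448.6 in fibroblasts, against 29258.5 to 43288.3 on the ES arrays. Germ cell genes were past 4-fold in 1 of 13 cases (7.69%), near the 5.78% higher in EBs over all genes. That gene was the receptor KIT, with a signal of 698.4 in EBs and a difference of 4.75. KIT ran from 246.2 to 3589.1 on the ES arrays, so the EBs lay within the ES range.

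The genes below had the largest differences in each direction. They were picked for that size and do not measure how unlike the samples were. MEST, an imprinted gene of embryonic mesoderm, had a signal of 4969.8 in EBs, against 12.5 in fibroblasts (7.45). SOX11, a transcription factor of immature neurons, had 4472.6 in EBs and 14.7 in fibroblasts (7.19). FABP7, the fatty acid binding protein of radial glia, had 2779.9 in EBs and 7.1 in fibroblasts (6.92). Of these genes MEST and SOX11 were also expressed on the ES arrays, at 761.5 to 1564.9 and 574.7 to 1872.1, whereas FABP7 was at 21.7 to 198.4 there. The others higher in EBs were IL1B, HOXA9, SOX2, LOC440823, RTN1, DLK1, ZIC1, DKFZp761O2018, MYCN, GAS2, TMSNB and MGC8685, with differences of 6.25 to 6.93. The files annotate TMSNB as a thymosin beta of neuroblastoma cells and MGC8685 as a tubulin beta paralogue, and tubulin copies may share probes. MYCN, a growth-promoting factor of embryonic cells, had 1577.6 in EBs and 3.6 in fibroblasts, and 1603.3 to 3521.8 on the ES arrays. The MYCN value rests on 1 of its 4 probe sets, and the others were at most 6.3 on either array. The second probe sets of FABP7 and ZIC1 were also dim, at 3 and 7.4 in EBs and 13.4 and 1.1 in fibroblasts.

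In the other direction S100A6, a calcium-binding protein, had a signal of 3.1 in EBs, against 5847.9 in fibroblasts (-8.26). A second probe set of S100A6 gave 9.4 in EBs and 926 in fibroblasts. CD48, an adhesion molecule known from leukocytes, had 3 in EBs and 2983.2 in fibroblasts (-7.30). Its 3 other bright probe sets went the same way, one of them from a separate design with 17.1 in EBs and 1078.6 in fibroblasts. PTPRC, the pan-leukocyte gene, was dim on both arrays, at 0.5 in EBs and 8.9 in fibroblasts.

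SRGN, the proteoglycan of secretory granules, had 26.9 in EBs and 5040.6 in fibroblasts. Also among the largest on the fibroblast side were IL6, KIAA1199, PTGS1, CXCL14, C1QTNF5, FGL2, GSTO1, MGC14289, TncRNA, ALDH1A3 and NR4A3, with differences of -7.35 to -6.46. On the ES arrays the median signal of each of these named genes was at most 116.5. GSTO1, MGC14289, CXCL14 and S100A6 were however above 300 on at least 1 ES array, with highest signals of 795.4, 742.3, 889.9 and 359.4.

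**Figure D2:**
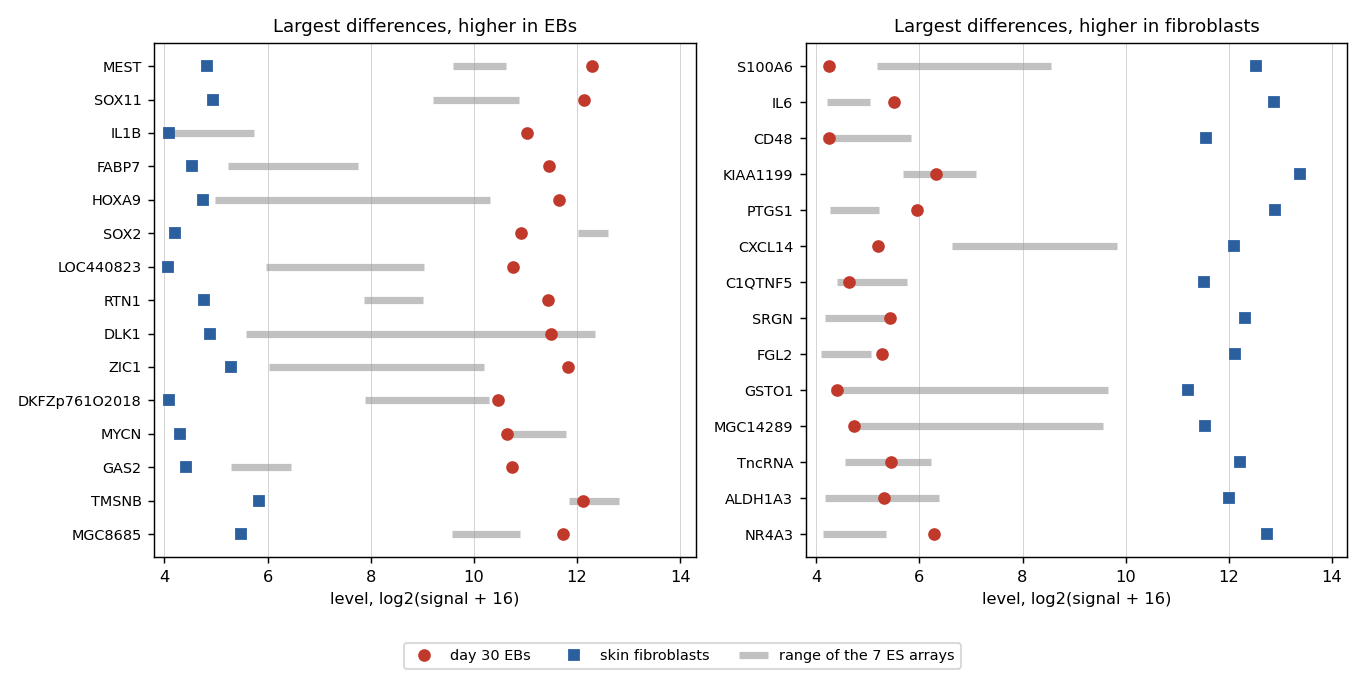
Levels, as log2(signal + 16), of the genes named for the largest differences in each direction, with EBs as circles, fibroblasts as squares and the range of the 7 ES arrays as grey bars. For SOX2 the EB level lies below the ES range, for MEST, SOX11 and IL1B above it; on the right, S100A6 and CXCL14 lie below the ES range in EBs.

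Other probe sets of these genes were counted where they had a signal of 200 on either array. They can enter through the array where the gene is bright, so their agreement is partly built in and does not test the calls. Dimmer probe sets were not counted. Among the genes at least 4-fold higher in EBs, 138 had another probe set with a signal of 200, and for 136 of them all such probe sets went the same way. Of the genes higher in fibroblasts 154 had one, and for 149 of them all went the same way. In 119 of the EB genes and 122 of the fibroblast genes another probe set was past 4-fold as well. Fibroblast calls were read here from the authors' detection p-values. Of the 1132 genes higher in EBs, 348 were Absent, 205 Present and 9 Marginal, and for 570 no p-value was given. These p-values were given only for selected probe sets, among them lists of genes upregulated in single ES lines. The counts of calls therefore do not describe all 1132 genes. No call is used for the EB array.

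Lists of genes that mark cell types and pathways were then read against the shares over all genes (5.78% higher in EBs, 3.07% higher in fibroblasts). The highest shares on the EB side were those of HOX genes, neuronal genes and the Notch and Hedgehog pathways. On the fibroblast side they were those of inflammatory mediators, complement and fibroblast surface markers.

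**Figure D3:**
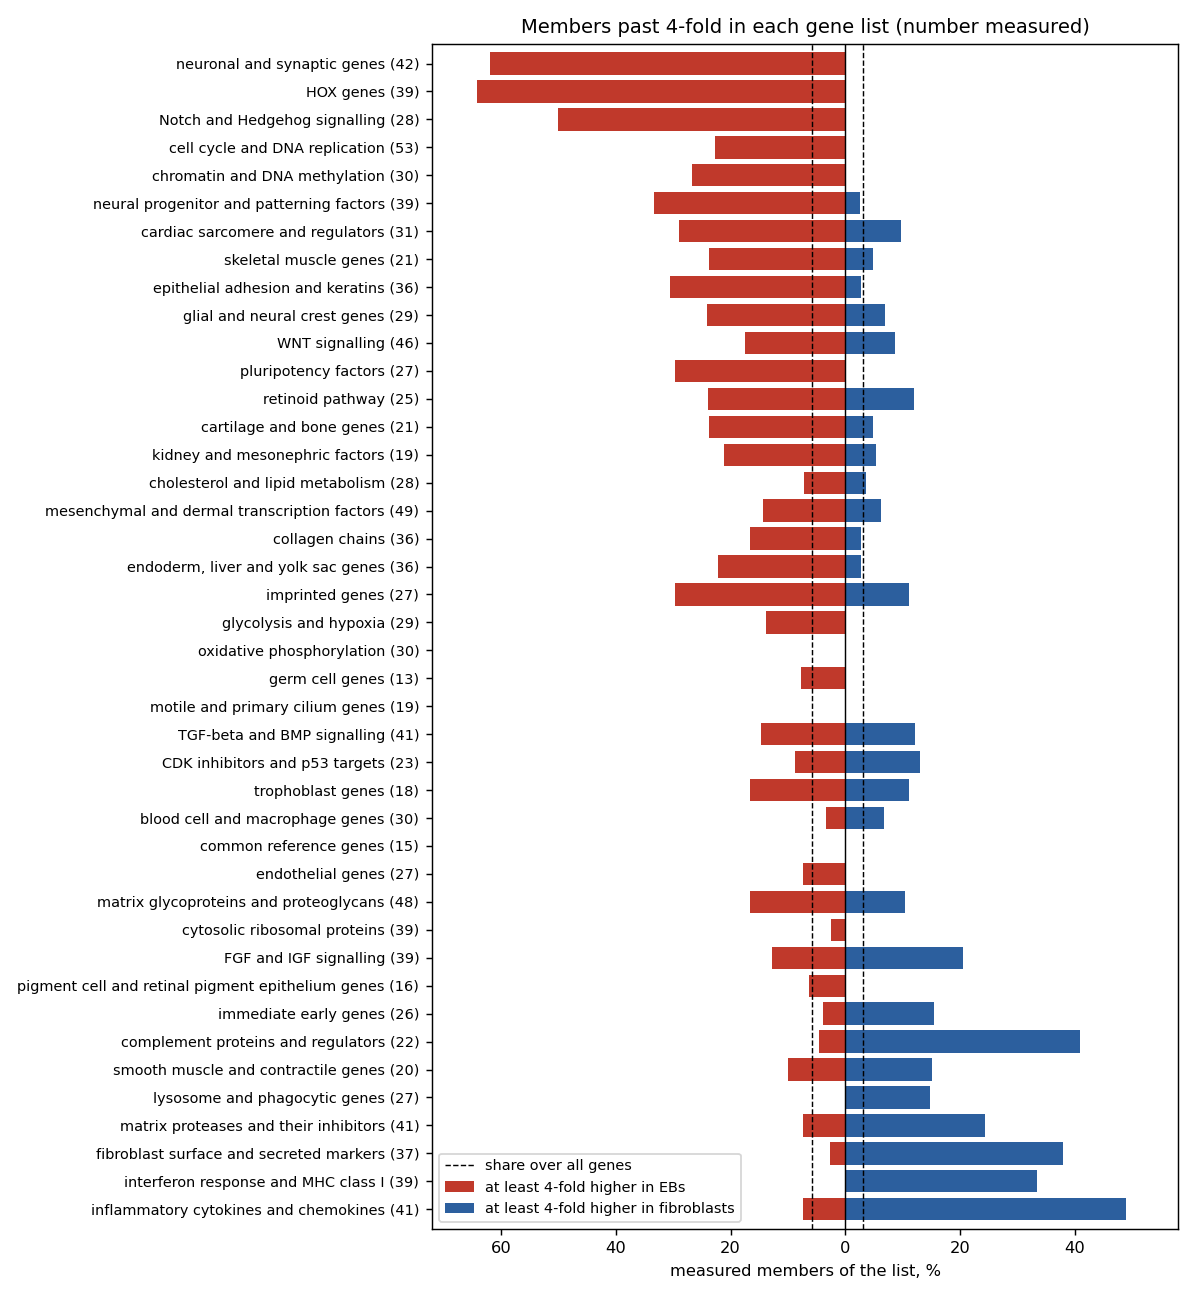
Share of the measured members of each gene list that were at least 4-fold higher in EBs (bars to the left) or in fibroblasts (bars to the right), in %, ordered by the list's median difference; dashed lines mark the shares over all genes, 5.78% and 3.07%. HOX genes reach 64.1% and neuronal and synaptic genes 61.9% on the EB side, and inflammatory cytokines and chemokines 48.8% on the fibroblast side.

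Of 42 neuronal and synaptic genes 26 (61.9%) were at least 4-fold higher in EBs and 0 in fibroblasts, with a median difference of 2.94. RTN1, a membrane protein of the neuronal endoplasmic reticulum, had a signal of 2748.2 in EBs and 11.2 in fibroblasts. CRMP1, a protein of growing axons, had 1266.6 in EBs and 2.5 in fibroblasts. Both were dim in fibroblasts. NCAM1, the neural cell adhesion molecule, had 2913.7 in EBs and 36.4 in fibroblasts. DCX, a microtubule protein of migrating young neurons, had 1788 in EBs and 35.6 in fibroblasts, and NEFM, a neurofilament subunit, 1044.1 in EBs and 7.4 in fibroblasts. On the ES arrays DCX ran from 6 to 100.1, below the EBs, and NEFM from 138 to 1156.1, a range that holds the EB value. INSM1, a zinc finger factor of neurons leaving division, had 524.8 in EBs and 1.4 in fibroblasts. The summed signal of the list was 33421.6 in EBs and 7594.6 in fibroblasts, against 8994.1 to 12798.5 on the ES arrays.

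Of 39 neural progenitor and patterning factors 13 were at least 4-fold higher in EBs and 1 in fibroblasts, with a median of 1.17. ZIC1, a factor of the dorsal neural tube, had 3615.1 in EBs and 23.3 in fibroblasts. OTX2, which specifies forebrain and midbrain, had 1306.3 in EBs and 6.2 in fibroblasts. PAX3, a factor of dorsal neural tube and somites, had 683.2 in EBs and 1 in fibroblasts. These 3 factors were dim in fibroblasts. On the ES arrays ZIC1 ran from 49.1 to 1155.2, OTX2 from 2456.6 to 6740 and PAX3 from 3.2 to 39.7. OTX2 was thus lower in EBs than on every ES array. The member past 4-fold on the fibroblast side was EMX2, a cortical and urogenital factor, with 69.4 in EBs and 1070.8 in fibroblasts. RAX, SIX3, NEUROG1 and NEUROG2 had signals of 6.1 to 15.1 in EBs and 1 to 27.5 in fibroblasts, low on both arrays, and were picked out after their values were seen.

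Glial and neural crest genes were higher in EBs in 7 of 29 cases and in fibroblasts in 2, with a median of 0.84. PTPRZ1, a phosphatase of radial glia, had 529.9 in EBs and 1 in fibroblasts, and SLC1A2, an astrocyte glutamate transporter, 664.1 in EBs and 9.1 in fibroblasts. GPM6A and GPM6B, membrane proteins of neurons and glia, had 887.4 and 1583.4 in EBs and 40.6 and 65.8 in fibroblasts. On the ES arrays PTPRZ1 ran from 1225.6 to 3389.1, above the EBs. SLC1A2, GPM6A and GPM6B reached at most 150.9, 77.8 and 613.5 there, below the EBs. These 4 genes were past 4-fold on the EB side, whereas SLC1A3, another astrocyte glutamate transporter added after its value was seen, had 379.6 in EBs and 368.5 in fibroblasts. MBP, known for myelin, went the other way, at 168.5 in EBs and 2286.2 in fibroblasts. So did EDNRB, an endothelin receptor, at 10.7 in EBs and 97.1 in fibroblasts. Of 16 pigment cell genes 1 (6.25%) was past 4-fold, near the 5.78% higher in EBs over all genes. It was the melanosome protein PMEL, at 1750.9 in EBs and 165.6 in fibroblasts, and 1033.1 to 1728.7 on the ES arrays.

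HOX genes encode the homeobox factors that set position along the body axis. Of 39 measured, 25 (64.1%) were at least 4-fold higher in EBs and 0 in fibroblasts, with a median difference of 2.82. On the fibroblast array their signals ran from 1.2 to 57.1, with a median of 11.1. On the EB array they ran from 3.2 to 3178.6, with a median of 195.3. Thus 19 HOX genes reached a signal of 200 in EBs and 0 in fibroblasts.

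HOXA9 had 3178.6 in EBs and 10.9 in fibroblasts (6.89), HOXD10 1274.8 in EBs and 8.5 in fibroblasts (5.72). HOXA5 had 1343.9 in EBs and 17.2 in fibroblasts (5.36). HOXA3, HOXC8 and HOXB5 followed, with differences of 4.95, 4.84 and 4.33. All 4 clusters were involved: 9 of 11 genes were past 4-fold in HOXA, 6 of 10 in HOXB, 4 of 9 in HOXC and 6 of 9 in HOXD. By position in the cluster they were 6 of 12 in paralogue groups 1 to 4, 9 of 11 in groups 5 to 8 and 10 of 16 in groups 9 to 13. The ES arrays varied widely for some of these genes, HOXA9 having 15.4, 52.2 and 1261.7 as the lowest, median and highest. HOXB1, HOXB13, HOXC12 and HOXD12 had signals of at most 8 in EBs and at most 25.2 in fibroblasts, and were singled out after their values were seen.

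**Figure D4:**
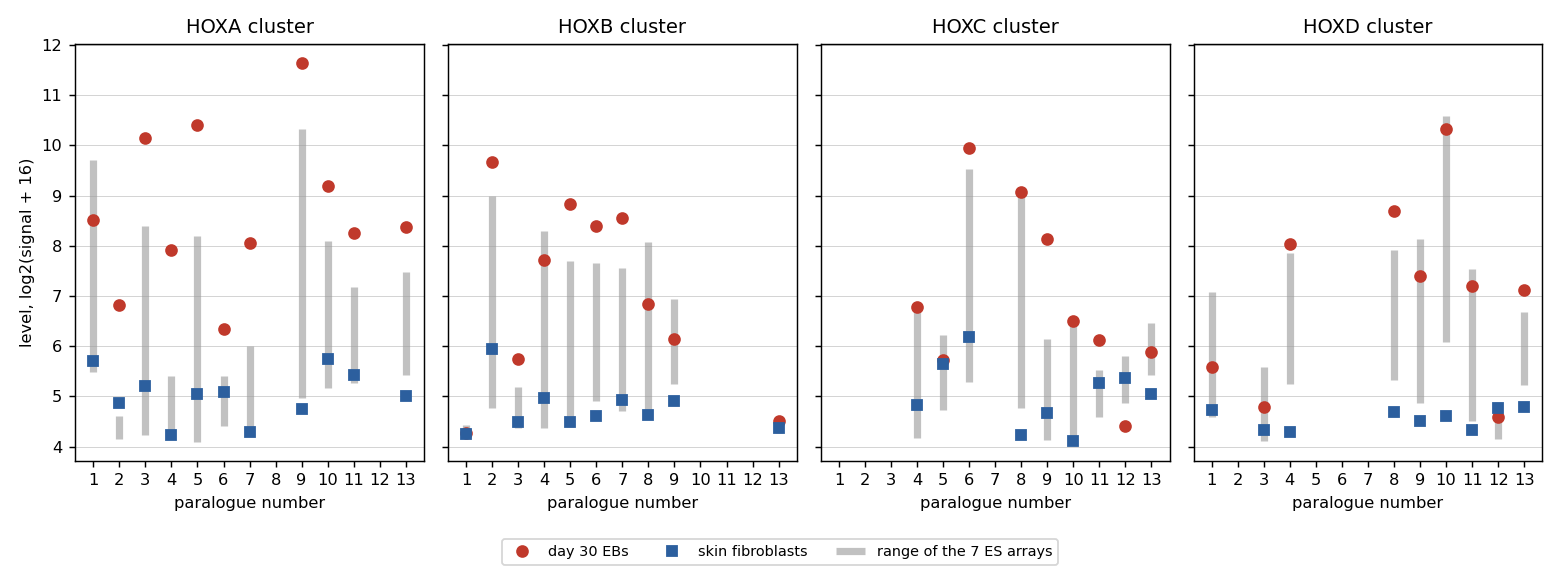
Levels, as log2(signal + 16), of the 39 measured HOX genes by paralogue number in each of the 4 clusters, with EBs as circles, fibroblasts as squares and the range of the 7 ES arrays as grey bars. The fibroblast squares stay at signals of at most 57.1, while 25 EB circles lie at least 4-fold above them, among them 9 of 11 in the HOXA cluster.

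The retinoid pathway, which induces HOX genes in the embryo, was split between the samples. Of 25 measured genes 6 were at least 4-fold higher in EBs and 3 in fibroblasts, with a median of 0.74. ALDH1A2, the main enzyme making retinoic acid in the embryo, had a signal of 1664.6 in EBs and 8.5 in fibroblasts (6.10). ALDH1A3, another enzyme of the same step, had 23.9 in EBs and 4097 in fibroblasts (-6.69). The 2 synthesising enzymes were thus each bright on 1 array only. Each value rests on 1 of 2 probe sets. The second probe sets of ALDH1A2 and ALDH1A3 were dim, at 4.6 and 2.4 in EBs and 1 and 9.2 in fibroblasts. CYP26A1, which degrades retinoic acid, had 586.8 in EBs and 2.6 in fibroblasts, and CRABP1, which binds it in the cytoplasm, 1316.4 in EBs and 5.2 in fibroblasts. Breakdown and binding thus stood with ALDH1A2 on the EB side. The second probe set of CRABP1 was dim, at 6.2 in EBs and 1.1 in fibroblasts. On the ES arrays the median signals of ALDH1A2, CYP26A1 and CRABP1 were 34.7, 1211.5 and 65.5. For CYP26A1 the EBs thus lay below the ES median, and for ALDH1A2 and CRABP1 above it. STRA6, the receptor that takes up retinol, had 132.6 in EBs and 2.5 in fibroblasts. RBP4, the plasma carrier of retinol, had 1.2 in EBs and 1285.1 in fibroblasts. RARRES1, a retinoid-responsive gene, had 53.7 in EBs and 1170.5 in fibroblasts.

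Notch and Hedgehog genes, which time differentiation and pattern tissues, were at least 4-fold higher in EBs in 14 of 28 cases and in fibroblasts in 0, with a median of 1.96. DLK1, an imprinted Notch-related membrane protein, had 2886.5 in EBs and 13.4 in fibroblasts. It varied widely on the ES arrays, with 31.8, 182.3 and 5170.7 as the lowest, median and highest. HEY1, a target of Notch, had 656 in EBs and 28.5 in fibroblasts, and the receptor NOTCH3 519.5 in EBs and 42.3 in fibroblasts. On the Hedgehog side BOC, a co-receptor, had 1321.1 in EBs and 61.7 in fibroblasts. GLI2, its transcription factor, had 500.6 in EBs and 48.8 in fibroblasts.

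WNT genes went both ways, 8 of 46 being higher in EBs and 4 in fibroblasts (median 0.82). The receptor FZD10 had 1151 in EBs and 14.1 in fibroblasts. LEF1 and AXIN2, both targets of canonical WNT signalling, had 274.8 and 1045.9 in EBs and 16.9 and 127.6 in fibroblasts. The secreted antagonists were divided, with WIF1 at 407.7 in EBs and 11 in fibroblasts. SFRP1 stood at 2290.6 in EBs and 13368.2 in fibroblasts, SFRP2 at 701.7 in EBs and 5800.5 in fibroblasts, and DKK3 at 2207.8 in EBs and 9598.4 in fibroblasts. LGR5, an R-spondin receptor, was at 491.9 in EBs and 4566.9 in fibroblasts.

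TGF-beta and BMP genes were higher in EBs in 6 of 41 cases and in fibroblasts in 5 (median 0.23). The ligands BMP4, BMP5 and BMP7 had 659.4, 473.6 and 621.5 in EBs, against 36.3, 9.7 and 15 in fibroblasts. These 3 ligands were dim in fibroblasts. BAMBI, a decoy receptor, had 1456.8 in EBs and 29.8 in fibroblasts, and ID1, a target of BMP, 963.6 in EBs and 84.8 in fibroblasts. The genes past 4-fold in fibroblasts included secreted binders. GREM1, which binds BMPs, had 1803.7 in EBs and 10997.4 in fibroblasts. FST, follistatin, had 537.8 in EBs and 3102.4 in fibroblasts, its relative FSTL3 21.4 in EBs and 826.8 in fibroblasts, and LTBP2, a microfibril protein, 26.9 in EBs and 749.3 in fibroblasts.

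FGF and IGF genes were higher in EBs in 5 of 39 cases and in fibroblasts in 8 (median -0.20). FGF2 itself had 89.5 in EBs and 4172.7 in fibroblasts (-5.31), and FGF7, the keratinocyte growth factor, 21.7 in EBs and 1467.1 in fibroblasts. The FGF7 value rests on 1 of its 5 probe sets, and the other 4 were at most 43.6 on either array. IGF2, a fetal growth factor, had 457.6 in EBs and 9.5 in fibroblasts, and IGF2BP3, a fetal RNA-binding protein, 3667 in EBs and 488.1 in fibroblasts. IGFBP7, IGFBP4 and IGFBP6, which bind or modulate IGFs, had 390.4, 1345.8 and 398.7 in EBs, against 6391.9, 10461.8 and 2607.5 in fibroblasts.

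Genes known from other lineages were past 4-fold on the EB side in small groups. Some of them were higher still on the ES arrays. Epithelial genes were higher in EBs in 11 of 36 cases and in fibroblasts in 1 (median 0.85). KRT19, a keratin of simple epithelia, had 930.8 in EBs and 2.6 in fibroblasts, and EPCAM, an epithelial adhesion molecule, 970.4 in EBs and 4.4 in fibroblasts. DSP, desmoplakin of the desmosome, had 540.5 in EBs and 7.6 in fibroblasts. These 3 genes were dim in fibroblasts. Their median signals on the ES arrays were 377.5, 1815.3 and 852.4, so for EPCAM and DSP the EBs lay below the ES median. KRT7, another simple keratin, ran against these, with 18.7 in EBs and 1795.7 in fibroblasts. CDH1, the defining epithelial cadherin, stood at 41.8 in EBs and 9.8 in fibroblasts and was added after its value was seen.

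Muscle genes were among them. Cardiac genes were higher in EBs in 9 of 31 cases and in fibroblasts in 3 (median 0.93), and skeletal muscle genes in 5 and 1 of 21 (median 0.88). ACTC1, the cardiac actin, had 1438.8 in EBs and 40.1 in fibroblasts. On the ES arrays ACTC1 had 340.2, 2655 and 3502.9 as the lowest, median and highest, so the EBs lay below the ES median. ISL1, a factor of heart progenitors and motor neurons, had 324.6 in EBs and 4.9 in fibroblasts. It had 22.5, 70.2 and 878.8 as the lowest, median and highest on the ES arrays. MYL1 and MYH3, a fast light chain and the embryonic heavy chain of skeletal muscle, had 715.8 and 530.9 in EBs and 0.9 and 2.2 in fibroblasts. MYL1 and MYH3 reached at most 15.9 and 19.5 on the ES arrays. Muscle genes of the fibroblast side were others. PLN, the regulator of the calcium pump, had 30.2 in EBs and 2561.3 in fibroblasts, and KLHL41, a sarcomere-associated protein, 367.6 in EBs and 6811.9 in fibroblasts. Smooth muscle genes were past 4-fold in EBs in 2 of 20 cases and in fibroblasts in 3 (median -0.68). SYNPO2, an actin-binding protein, had 334.2 in EBs and 6482.6 in fibroblasts, while ACTG2, the enteric actin, had 5087.7 in EBs and 708.8 in fibroblasts.

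Endoderm and liver genes were higher in EBs in 8 of 36 cases and in fibroblasts in 1 (median 0.45). APOA1, an apolipoprotein of liver and yolk sac, had 404.9 in EBs and 2.7 in fibroblasts, and FOXA1 and SOX17, endoderm factors, 318.6 and 216.2 in EBs and 15.3 and 17.8 in fibroblasts. On the ES arrays the median signals of APOA1, FOXA1 and SOX17 were 108.7, 85.1 and 323. Kidney factors were higher in EBs in 4 of 19 cases and in fibroblasts in 1 (median 0.65). WT1, the Wilms tumour factor of nephron progenitors, had 1038.7 in EBs and 34.7 in fibroblasts, and SALL1 260 in EBs and 1 in fibroblasts. The ES medians of WT1 and SALL1 were 48.3 and 618.9. Trophoblast genes were split, 3 of 18 being higher in EBs and 2 in fibroblasts (median 0.21). The T-box factor EOMES had 197.8 in EBs and 11.5 in fibroblasts, and CGA, the hormone alpha subunit, 34.9 in EBs and 219.9 in fibroblasts. The ES medians of EOMES and CGA were 599.9 and 31.7. For SOX17, SALL1 and EOMES the EBs thus lay below the ES median.

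Vascular and blood genes were past 4-fold at shares not far from those over all genes, 5.78% higher in EBs and 3.07% in fibroblasts. The endothelial shares were 7.41% and 0%, and the blood shares 3.33% and 6.67%. Of 27 endothelial genes 2 were higher in EBs and 0 in fibroblasts (median 0.11), EMCN, endomucin, at 341.2 in EBs and 2.4 in fibroblasts, and KDR, a VEGF receptor, at 162.5 in EBs and 13.5 in fibroblasts. The defining endothelial genes CDH5 and PECAM1 had 6.9 and 21.3 in EBs and 12.5 and 41.4 in fibroblasts. Blood cell and macrophage genes were higher in EBs in 1 of 30 cases and in fibroblasts in 2 (median 0.15). The one on the EB side was CORO1A, an actin-binding protein of leukocytes, at 80.4 in EBs and 5.5 in fibroblasts. Those on the fibroblast side were SRGN and CD68, a lysosomal glycoprotein of macrophages and other cells, at 31.9 in EBs and 635.6 in fibroblasts. Picked after their values were seen, RUNX1, a factor of blood and other lineages, had 342.7 in EBs and 1358.1 in fibroblasts, and the integrin chain ITGB2 391.7 in EBs and 504.3 in fibroblasts. The list's summed signal was 1771.5 in EBs and 8271 in fibroblasts, against 877.9 to 1221.4 on the ES arrays.

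Most matrix genes were within 4-fold, among them 29 of 36 collagen chains and 35 of 48 matrix glycoproteins and proteoglycans. Of 36 collagen chains 6 were higher in EBs and 1 in fibroblasts (median 0.47). COL9A3, COL9A1 and COL2A1, chains of cartilage collagens, had 693.2, 215.1 and 386.3 in EBs, against 17.6, 12.3 and 41.5 in fibroblasts. COL4A5 and COL18A1, of basement membranes, had 774.7 and 338.9 in EBs and 89.4 and 17.7 in fibroblasts. COL12A1, which decorates fibrils in tension-bearing tissue, had 653.8 in EBs and 6845.7 in fibroblasts. Cartilage and bone genes as a list were higher in EBs in 5 of 21 cases and in fibroblasts in 1 (median 0.65).

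Of 48 matrix glycoproteins and proteoglycans 8 were higher in EBs and 5 in fibroblasts (median 0.06). FBN2, the fibrillin of embryonic tissue, had 1408.1 in EBs and 18.1 in fibroblasts. GPC3, a fetal glypican, had 3151.2 in EBs and 63 in fibroblasts, and POSTN, periostin, 3326.4 in EBs and 303.5 in fibroblasts. Among small leucine-rich proteoglycans, those past 4-fold were on the fibroblast side. PRELP was at 43.3 in EBs and 3191.9 in fibroblasts and BGN, biglycan, was at 494.3 in EBs and 2737.1 in fibroblasts. FMOD, fibromodulin, and ASPN, asporin, had 135.2 and 113 in EBs and 979.4 and 649.3 in fibroblasts. LUM and DCN, given above, were within 4-fold. Fibronectin, FN1, named after its value was seen, had 8394.6 in EBs and 9091 in fibroblasts.

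Matrix proteases and their inhibitors leaned to the fibroblasts, with 3 of 41 higher in EBs and 10 higher in fibroblasts (median -0.99). MMP3, stromelysin, had 194.5 in EBs and 8349.7 in fibroblasts (-5.31). ADAMTS1, a protease of proteoglycans, had 467.8 in EBs and 11688.9 in fibroblasts. TFPI2, an inhibitor of serine proteases and an imprinted gene, had 581.4 in EBs and 11508.8 in fibroblasts. ADAMTS3, the procollagen II protease, ran the other way, with 453.8 in EBs and 14.4 in fibroblasts. Fibroblast surface and secreted markers were higher in EBs in 1 of 37 cases and in fibroblasts in 14 (median -1.08). ITGA11, a collagen-binding integrin chain, had 9.6 in EBs and 1320.9 in fibroblasts, and NQO1, a quinone reductase, 159 in EBs and 5394.8 in fibroblasts.

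Inflammatory mediators had the lowest median of all 42 lists. Of 41 measured 3 were at least 4-fold higher in EBs and 20 (48.8%) in fibroblasts, with a median difference of -1.91. IL6, the acute-phase cytokine, had a signal of 29.7 in EBs and 7452 in fibroblasts (-7.35). Of its 2 probe sets only this one was bright. PTGS1, the constitutive cyclooxygenase, had 45.9 in EBs and 7611.4 in fibroblasts (-6.95), and its other bright probe sets gave 42.2 and 19.9 in EBs and 3967.5 and 392.5 in fibroblasts. The chemokines CXCL14, CCL20 and CXCL2 had 20.6, 8.5 and 1.8 in EBs, against 4375, 1255.9 and 719.7 in fibroblasts. CXCL6, a neutrophil chemokine, had 172.7 in EBs and 6438.5 in fibroblasts.

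A pair of mediators stood on the EB side with large differences. IL1B, the pro-inflammatory interleukin 1 beta, had 2069.2 in EBs and 1.1 in fibroblasts (6.93), and 0.9, 13.9 and 37.5 as the lowest, median and highest on the ES arrays. The second probe set of IL1B, against the same target, gave 630.5 in EBs and 4.1 in fibroblasts. CXCL12, the chemokine that guides CXCR4-bearing cells, had 2474.4 in EBs and 21.1 in fibroblasts (6.07). Unlike IL1B, CXCL12 was bright on the ES arrays, at 515.9 to 2580.7, and the EBs lay within that range. Its receptor CXCR4 had 388.2 in EBs and 4.7 in fibroblasts. The third member was the interferon-induced chemokine CXCL11, at 93.4 in EBs and 6.6 in fibroblasts.

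**Figure D5:**
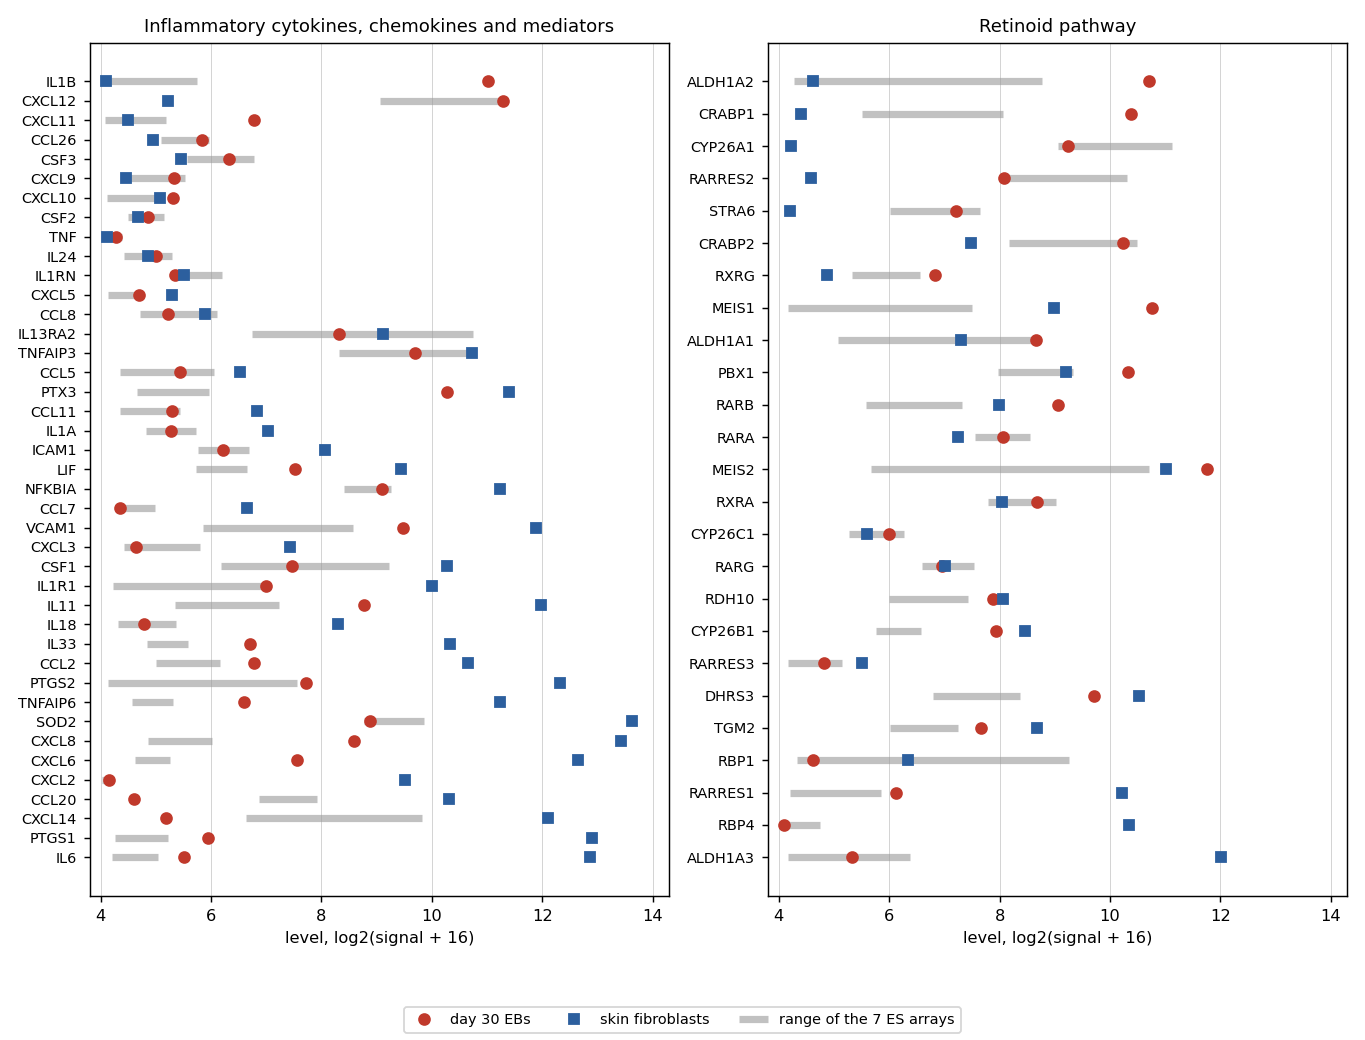
Levels, as log2(signal + 16), of the 41 measured inflammatory mediators (left) and the 25 retinoid pathway genes (right), ordered by the EB minus fibroblast difference, with EBs as circles, fibroblasts as squares and the range of the 7 ES arrays as grey bars. On the left 20 genes are at least 4-fold higher in fibroblasts and IL1B and CXCL12 stand apart at the top; on the right ALDH1A2 and ALDH1A3 lie at opposite ends.

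Complement and interferon-linked genes lay on the same side. Complement genes were higher in EBs in 1 of 22 cases and in fibroblasts in 9 (median -0.64). CFB, factor B of the alternative pathway, had 228.5 in EBs and 8822.7 in fibroblasts. C1S and C1R, the proteases of the C1 complex, had 216.1 and 803.7 in EBs and 3781.2 and 6270.6 in fibroblasts. C7, of the membrane attack complex, was the one on the EB side, at 112.8 in EBs and 0.5 in fibroblasts. Interferon response and class I genes were higher in EBs in 0 of 39 cases and in fibroblasts in 13 (median -1.42). IFI44, an interferon-induced protein, had 44.7 in EBs and 1361.5 in fibroblasts, and PSMB9, an immunoproteasome subunit, 5.7 in EBs and 437.6 in fibroblasts. B2M, the class I light chain, was within 4-fold, at 4859.9 in EBs and 12183.8 in fibroblasts, and was added after its value was seen.

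Immediate early genes were higher in EBs in 1 of 26 cases and in fibroblasts in 4 (median -0.26). NR4A3 and NR4A2, orphan nuclear receptors induced by many stimuli, had 62 and 57.6 in EBs and 6846 and 3154.9 in fibroblasts. Lysosome genes were higher in EBs in 0 of 27 cases and in fibroblasts in 4 (median -0.99), among them GPNMB, a lysosomal glycoprotein, at 327.7 in EBs and 3869.4 in fibroblasts.

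Of 53 cell division genes measured 12 (22.6%) were at least 4-fold higher in EBs and 0 in fibroblasts, with a median of 1.41, and 49 had the higher level in EBs. MCM3, a subunit of the replicative helicase, had 1179.9 in EBs and 107.3 in fibroblasts. MYBL2, a factor of late-cycle transcription, had 365.6 in EBs and 25.7 in fibroblasts, and CDK1, the mitotic kinase, 687.7 in EBs and 102.5 in fibroblasts. The summed signal was 55568.7 in EBs and 30116.4 in fibroblasts, against 124593 to 146336 on the ES arrays, so the EBs lay between the other samples. The fibroblasts were harvested at confluence, per the labels, and any part of this in the difference was not tested. Cyclin-dependent kinase inhibitors and p53 targets were higher in EBs in 2 of 23 cases and in fibroblasts in 3 (median 0.23). CDKN1C, an imprinted inhibitor, had 2960.8 in EBs and 634.8 in fibroblasts, and FAS, the death receptor, 154.9 in EBs and 1351.1 in fibroblasts.

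Chromatin genes were higher in EBs in 8 of 30 cases and in fibroblasts in 0 (median 1.18). HMGA2, an architectural protein of fetal cells, had 6865.2 in EBs and 306 in fibroblasts. TET1, which oxidises methylcytosine, had 1156.4 in EBs and 97.8 in fibroblasts, and LMNB1, lamin B1, 277.6 in EBs and 8.4 in fibroblasts. Imprinted genes were higher in EBs in 8 of 27 cases and in fibroblasts in 3 (median 0.44). Beside MEST, DLK1 and IGF2, PEG3 had 3052.5 in EBs and 151.3 in fibroblasts. TFPI2, ATP10A and SLC22A18 were the ones higher in fibroblasts, with 581.4, 45.5 and 57.4 in EBs and 11508.8, 416.1 and 466.3 in fibroblasts.

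Mesenchymal and dermal factors were higher in EBs in 7 of 49 cases and in fibroblasts in 3 (median 0.48). FOXD1, a forkhead factor of kidney stroma, had 2391.2 in EBs and 89.6 in fibroblasts, and EBF2, a factor of mesenchymal precursors, 459.6 in EBs and 6.3 in fibroblasts. PRRX1, a factor of limb and craniofacial mesenchyme, had 998.1 in EBs and 4814.2 in fibroblasts. AHR, the aryl hydrocarbon receptor, had 55.2 in EBs and 568.6 in fibroblasts, and TBX15, a dermal T-box factor, 55.9 in EBs and 295.9 in fibroblasts.

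Lists of general metabolism were uneven. Of glycolysis and hypoxia genes 13.8% were at least 4-fold higher in EBs, against 5.78% over all genes. Cholesterol and lipid genes, at 7.14% in EBs and 3.57% in fibroblasts, were near the shares over all genes, 5.78% and 3.07%. Glycolysis and hypoxia genes were higher in EBs in 4 of 29 cases and in fibroblasts in 0 (median 0.36), with the glucose transporter SLC2A1 at 4513.8 in EBs and 804.1 in fibroblasts. Cholesterol and lipid genes were higher in EBs in 2 of 28 cases and in fibroblasts in 1 (median 0.60). APOE, an apolipoprotein, had 3057.8 in EBs and 215.6 in fibroblasts, and PLIN2, the lipid droplet coat, 55.1 in EBs and 832.3 in fibroblasts. Of 30 oxidative phosphorylation genes (median 0.36), 15 common reference genes (median 0.13) and 19 cilium genes (median 0.35), 0 were past 4-fold in either direction.

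Ribosomal protein genes were higher in EBs in 1 of 39 cases and in fibroblasts in 0 (median -0.14). The exception was RPS15, at 3084.1 in EBs and 534.6 in fibroblasts by the brightest of its probe sets. Ribosomal proteins have many processed copies, which probes may also bind. Among genes that differed by less than 2-fold, the 12 with the highest level on their dimmer array were RPS3A, RPL23A, RPL35A, RPL22, RPS3, EEF1G, RPL5, RPL6, RPS16, LDHB, RPSA and RPS12. Their signals ran from 9282.7 to 12121.3 in EBs and from 10511.7 to 14595.7 in fibroblasts, and all but EEF1G, an elongation factor subunit, and LDHB, a lactate dehydrogenase chain, are components of the ribosome.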

How the data were processed

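RNA from each sample was hybridised to a 1-colour Affymetrix Rhesus array. The authors deposited 1 signal intensity per probe set, made with MAS5 per the submitters' processing notes, whose version is not given in the sources used here. Each array had a 2% trimmed mean close to 200, so all share a common scale. Beside it, the authors deposited a detection p-value for 12132 fibroblast probe sets, read here as Present below 0.05 and Absent above 0.065. A further 134 deposited columns were not used.

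From the value table of 52865 probe sets, 99 controls, 3 with a missing value and 31 of Y-linked genes were left out. Signals were turned to log2(signal + 16) and differences past 4-fold were counted, with Python 3.11.15, numpy 2.4.6, pandas 2.3.3 and matplotlib 3.10.9. The probe set with the highest mean level over the EB and fibroblast arrays stood for its gene. Of 19607 symbols, 11151 were current in the reference table, 452 were updated through it, 80 by hand, and 7924 were kept. The counting was tested on simulated data.

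Named genes are the 15 largest differences per direction with a signal of 200 and no bright probe set going the other way, up to 6 members past 4-fold per direction in each of 42 lists, the 12 brightest shared genes, POU5F1, SOX2, NANOG, COL1A1, COL1A2, VIM and THY1, and the fibroblast markers. Some genes are in several lists, and a few genes are not reported here. The comparison, its members and the lists were chosen with earlier results of these data known. Alternatives were the offset, quantile normalization, centring, the median over a gene's probe sets, a filter on dim probe sets and the fold. The number of arrays limits the precision. With 1 array a side there are no errors, intervals or tests.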

Additional observations from a re-analysis of the deposited data

How the results depend on the processing

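No paired analysis was possible because each side has 1 array, and no array could be left out. The main counts were 1823 probe sets at least 4-fold higher in EBs and 1138 higher in fibroblasts. The count was 5497 for EBs and 2708 for fibroblasts with an offset of 1, and 832 for EBs and 718 for fibroblasts with an offset of 64, which compresses more. It was 7050 for EBs and 3687 for fibroblasts at 2-fold, and 684 for EBs and 484 for fibroblasts at 8-fold. Quantile normalization gave 1392 for EBs and 1266 for fibroblasts, median centring 1398 for EBs and 1462 for fibroblasts, and a filter at a signal of 100 on either array 1628 for EBs and 1084 for fibroblasts. The EB side was thus the smaller one with median centring, and by genes it held 65.3% of the calls, against 54.2% when centred. Of 245 named genes past 4-fold, 245 remained so with an offset of 1. That outcome was fixed in advance, because a smaller offset can only enlarge a difference. With an offset of 64, 203 remained, with quantile normalization 235 and when centred 232. With the median of a gene's probe sets, where dim probe sets count as much as bright ones, 175 remained. That median turned the sign of 5 genes: ADAMTS9 became -0.0223 (2.73 by its brightest probe set), AKR1C1 0.19 (-3.42), CDKN2B -0.32 (2.06), FGF7 0.12 (-5.30) and PKM -0.45 (2.06). Single probe sets, 1 array a side and signals near background limit what can be said of dim genes.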

Other observations

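Mitochondrial transcripts, which carry no gene list above, were uneven. COX1, a subunit of cytochrome oxidase, had a signal of 220.4 in EBs and 10491.2 in fibroblasts, and 542.5, 6938 and 19674.7 as the lowest, median and highest on the ES arrays. ATP8, a subunit of ATP synthase, had 15.1 in EBs and 2564.2 in fibroblasts, with 21.3, 23.2 and 2391 on the ES arrays. ND2, of complex I, had 132.3 in EBs and 2392.1 in fibroblasts. ND5, of the same complex, was close on both, at 1080.4 in EBs and 1321.9 in fibroblasts. The ES arrays thus spread over much of the gap between EBs and fibroblasts for COX1 and ATP8. Nuclear oxidative phosphorylation genes had none past 4-fold, as given above. The 28S ribosomal RNA had 6469.2 in EBs and 4616.8 in fibroblasts by its brightest probe set.

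Gene families picked by their symbols after values were seen gave these counts, beside 5.78% and 3.07% over all genes. Of 384 zinc finger genes named ZNF, 18 were at least 4-fold higher in EBs and 5 in fibroblasts, with a median difference of 0.55. Kinesins, the microtubule motors used in division and axonal transport, were higher in EBs in 6 of 31 cases and in fibroblasts in 0 (median 0.70). Aldo-keto reductases were higher in EBs in 0 of 11 cases and in fibroblasts in 3 (median -1.15), and several of them are near-identical copies. Protocadherins, adhesion molecules many of which are neural, were higher in EBs in 8 of 51 cases and in fibroblasts in 2 (median 0.22).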
